A study of Mus musculus with 28 samples.

Results

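The comparison described here set 7 whole-brain libraries from mice labelled as lacking the TNF receptor TNFR1 in microglia against 7 libraries from control mice, all in remyelination. These 14 libraries were taken by their titles, mgTNFR1KO or TNFR1ff in remyelination, from a series of 28. Both genotypes carried the floxed Tnfr1 allele (TNFR1ff, backcrossed onto C57BL/6), and the knockout mice also carried Cx3cr1-CreER, a tamoxifen-inducible Cre recombinase at the locus of the microglial gene Cx3cr1. Tamoxifen was given in a therapeutic scheme to delete TNFR1 from microglia. Both groups had received cuprizone, a copper chelator in the diet that kills oligodendrocytes, under the code CPZ6+1, whose unit is not stated. The other 14 libraries, 7 of naive TNFR1ff mice (CPZ0) and 7 of TNFR1ff mice at the peak of demyelination (CPZ5), entered the same fit and are given here as reference levels. Whether the controls received tamoxifen, the age and sex of the mice, and whether each library is a separate animal could not be taken from the labels, so p-values measure the spread between these libraries. The control lacks the Cre allele, so the presence of Cre at Cx3cr1, the deletion it brings about and the genotype cannot be told apart in this design. If the controls received no tamoxifen, exposure to it cannot be told apart from these either.

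TNFR1, encoded by Tnfrsf1a, binds TNF and assembles a complex around the adaptor TRADD and the kinase RIPK1, from which signals run to NF-kB, to MAP kinases and to cell death. NF-kB induces its own inhibitor, encoded by Nfkbia, which ends the signal. Microglia, the resident macrophages of the brain, clear myelin debris after cuprizone, and oligodendrocyte precursors then form new myelin. The cuprizone model is known for this spontaneous repair once the agent is withdrawn.

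RNA was measured with QuantSeq, a 3′ tag protocol with about a read per transcript near its polyadenylated end, and levels are counts relative to library size (CPM) scaled by TMM, which corrects for differences in library composition. The 14 libraries held between 1531710 and 3137252 counts, and 3 counts, the floor used for detection, correspond to between 0.956 and 1.96 CPM. Knockout library 1 stood apart. The most abundant gene, for which no symbol was found, took 1.33% of its counts and between 5.84 and 17.1% in the other 13. Its median root mean square log2 difference to the control libraries was 0.835, and the same measure to the opposite group was between 0.548 and 0.668 for the others. Over all pairs the median difference was 0.602 within knockout, 0.613 within control and 0.610 between the groups, so libraries of different genotype were about as far apart as those of 1 genotype. In whole-brain RNA, fewer cells of a type and less RNA per cell cannot be told apart.

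Few transcripts passed the test. Of 12423 genes tested, 6 passed an adjusted p of 0.05 in edgeR's quasi-likelihood test with Benjamini-Hochberg adjustment (0.0483% of all genes), 5 higher in knockout (0.0402%) and 1 lower (0.00805%). The 5 that rose were Nr4a1, Arc, Dusp1 and Fos, which belong to the immediate early genes, and Ddit4, a stress-induced inhibitor of mTOR signalling. The gene that fell was Cx3cr1, the fractalkine receptor of microglia and the site of the Cre. At an unadjusted p under 0.05 there were 930 genes (7.49%), 452 higher (3.64%) and 478 lower (3.85%). DESeq2 called 13 genes, among them these 6, and the median log2 fold change over all genes was 0.00 (−0.000319). Of all genes tested 50% lay above 0, and of those at 100 CPM or more 54.5% did.

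**Figure D1:**
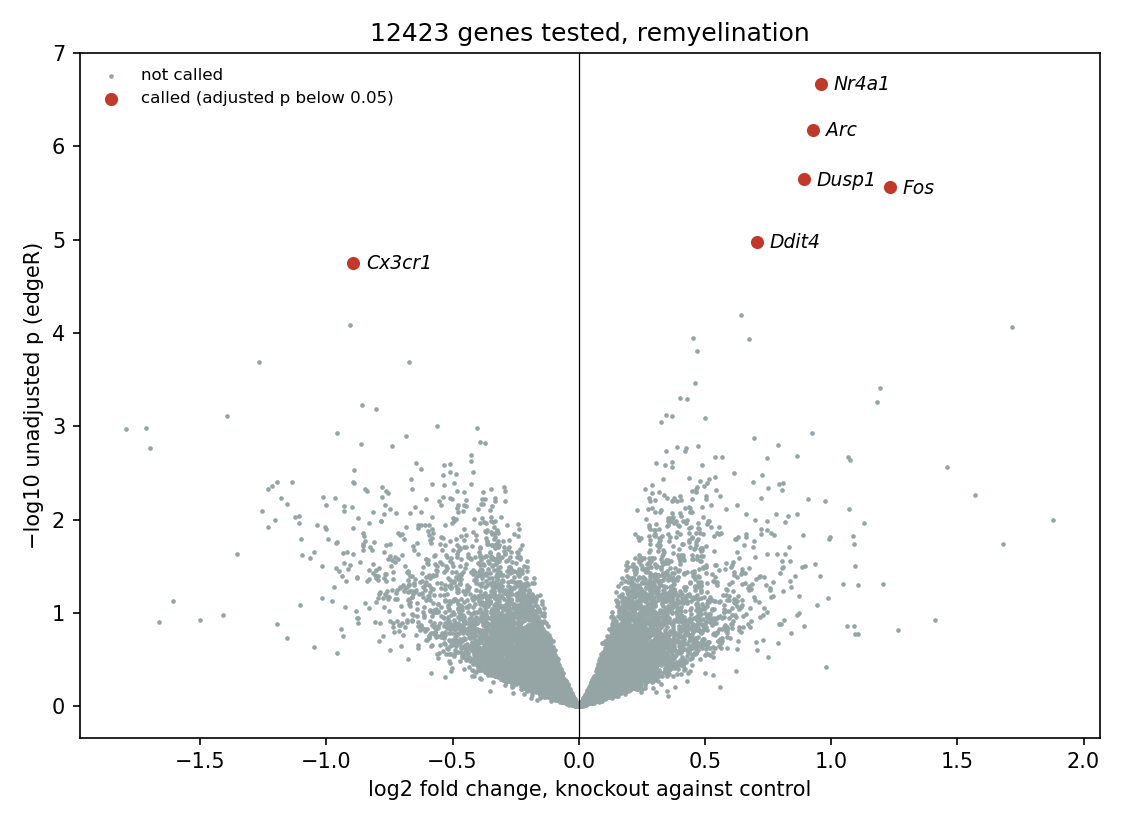
Log2 fold change of knockout against control (x axis) and −log10 of the unadjusted edgeR p (y axis) for the 12423 genes tested, one point each. The 6 called genes are red and named, 5 of them to the right of 0 and Cx3cr1 to the left.

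The targeted transcript was measured first. Tnfrsf1a (ENSMUSG00000030341.18) ran from 16.5 to 30.4 CPM in knockout with a median of 21.8, and from 15.6 to 28.8 CPM in control with a median of 23.8. The libraries of the genotypes overlapped along nearly their whole range. The log2 fold change was −0.05 (SE 0.167, 95% interval −0.39 to 0.29, adjusted p = 0.961). The tag sits at the transcript's 3′ end, possibly beyond the floxed segment, and cells other than microglia express the gene, so this level does not check the deletion. Tnf, the ligand, had 0 counts in knockout and 1 in control over 7 libraries each. Tnfrsf1b, the second TNF receptor, had 28 and 25 counts. Lymphotoxin alpha, encoded by Lta, had 0 and 3, and none of these reached the level needed for a test.

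Immediate early genes are switched on within minutes of a stimulus, in neurons mostly by activity, without new protein synthesis. Nr4a1 (ENSMUSG00000023034.8), an orphan nuclear receptor of this class, ran from 57.4 to 91.2 CPM in knockout (median 79.4) and from 31.5 to 51.8 CPM in control (median 37.7). All 7 knockout libraries lay above all 7 controls, as in 0.0805% of all genes tested, and knockout library 6 was the lowest of its group. Its log2 fold change was 0.96 (SE 0.154, 95% interval 0.65 to 1.27, adjusted p = 0.00268), a mean of 78.7 ± 10.8 against 40.1 ± 8.14 CPM (SD, n = 7 each). Fos (ENSMUSG00000021250.14), a subunit of the AP-1 transcription factor, ran from 23.5 to 53.1 CPM in knockout (median 31.2) and from 8.31 to 20.04 CPM in control (median 14.3). Its groups did not overlap either, and knockout library 5 was the highest. Fos rose by 1.23 on the log2 scale (SE 0.228, 95% interval 0.77 to 1.69, adjusted p = 0.00855).

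Arc (ENSMUSG00000022602.15), a synaptic protein transcribed after neuronal activity, ran from 53.5 to 98.7 CPM in knockout (median 76.2) and from 29.2 to 60.9 CPM in control (median 40.5). Here 6 of 7 knockout libraries lay above the highest control, and knockout library 6 lay below it. Arc rose by 0.93 (SE 0.158, 95% interval 0.61 to 1.25, adjusted p = 0.0041). Dusp1 (ENSMUSG00000024190.8), a phosphatase that switches off MAP kinases, ran from 40.7 to 77.2 CPM in knockout (median 57.6) and from 22.7 to 45.0 CPM in control (median 28.8). Again 6 of 7 knockout libraries lay above the highest control, with knockout library 6 the exception. Dusp1 rose by 0.89 (SE 0.162, 95% interval 0.56 to 1.22, adjusted p = 0.00855). Control libraries 2 and 5 were the 2 highest controls for Nr4a1, Dusp1 and Fos, and libraries 2 and 7 for Arc.

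**Figure D2:**
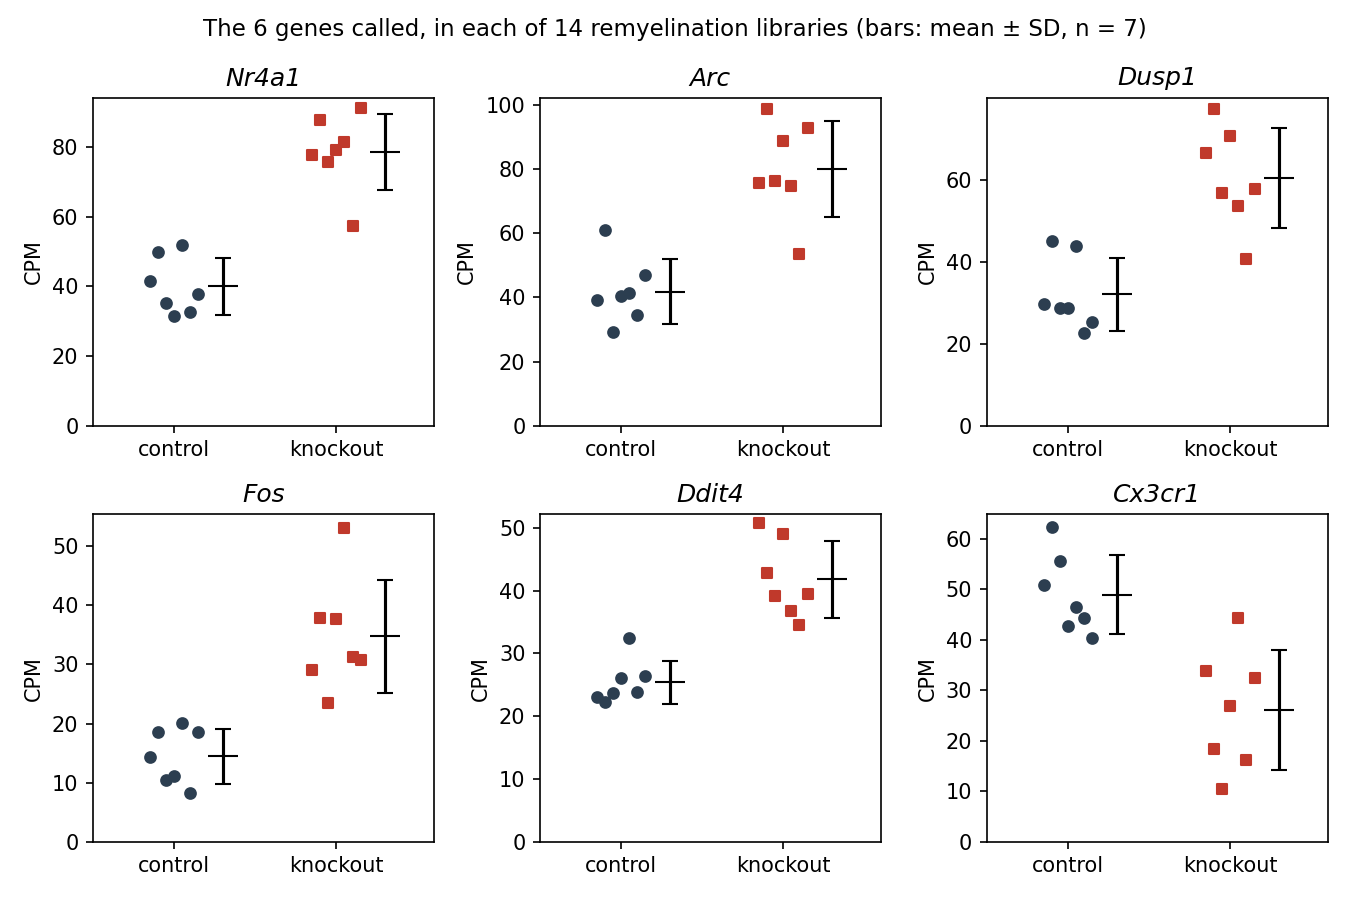
CPM (y axis, from 0) of the 6 called genes in the 7 control (dark circles) and 7 knockout libraries (red squares), with the mean and SD of each group in black. Nr4a1, Fos and Ddit4 do not overlap between groups, Arc and Dusp1 overlap through knockout library 6, and Cx3cr1 overlaps through knockout library 5.

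Reference levels of these genes in the other stages are given side by side with the remyelination groups. Fos was at 35.9 ± 7.98 CPM in naive, 31.5 ± 13.7 in demyelination, 14.5 ± 4.65 in control remyelination and 34.7 ± 9.52 in knockout remyelination (SD, n = 7 each). For Nr4a1 the means in the same order were 76.4 ± 21.2, 61.7 ± 14.9, 40.1 ± 8.14 and 78.7 ± 10.8 CPM. For Arc they were 65.2 ± 13.7, 60.2 ± 15.3, 41.8 ± 10.1 and 80.0 ± 15.0 CPM, and for Dusp1 54.2 ± 8.28, 51.6 ± 12.5, 32.0 ± 8.82 and 60.4 ± 12.1 CPM. In all 4 genes the control remyelination group had the lowest mean of the 4 groups. Since every comparison with the control group shares these 7 libraries, no pattern across stages was tested.

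Promoters of the called genes are shown because immediate early genes are known as a class for cyclic AMP response elements. The windows hold the 250 bases before the annotated start, from RefSeq on GRCm38.p6, read 5′ to 3′ on the gene's strand. Of the 6 called genes 5 had an entry, and Arc is named only. Capitals mark TGACG, the half-site of the cyclic AMP response element, or its reverse complement CGTCA. The full element TGACGTCA holds both in overlap.
Nr4a1: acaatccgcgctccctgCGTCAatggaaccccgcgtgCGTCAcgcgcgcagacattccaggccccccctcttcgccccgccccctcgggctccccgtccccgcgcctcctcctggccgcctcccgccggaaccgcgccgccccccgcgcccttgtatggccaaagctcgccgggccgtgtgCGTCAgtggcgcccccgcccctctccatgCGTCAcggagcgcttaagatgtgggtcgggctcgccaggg
Dusp1: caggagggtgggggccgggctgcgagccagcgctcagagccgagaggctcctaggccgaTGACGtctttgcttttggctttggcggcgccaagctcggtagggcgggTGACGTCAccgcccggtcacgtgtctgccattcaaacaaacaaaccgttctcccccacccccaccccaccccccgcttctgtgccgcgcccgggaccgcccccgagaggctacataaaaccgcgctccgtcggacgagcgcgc
Fos: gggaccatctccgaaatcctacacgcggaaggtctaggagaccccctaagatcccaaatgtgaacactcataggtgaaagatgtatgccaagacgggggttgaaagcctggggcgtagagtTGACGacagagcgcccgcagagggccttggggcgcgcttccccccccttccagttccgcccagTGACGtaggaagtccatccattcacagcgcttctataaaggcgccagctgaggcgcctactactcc
Ddit4: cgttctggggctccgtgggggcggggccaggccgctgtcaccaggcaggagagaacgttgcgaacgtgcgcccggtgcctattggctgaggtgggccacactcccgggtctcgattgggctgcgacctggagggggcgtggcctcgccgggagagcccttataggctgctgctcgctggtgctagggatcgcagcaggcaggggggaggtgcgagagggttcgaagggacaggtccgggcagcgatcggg
The Nr4a1 window, chr15:101266596-101266845 (plus strand), held 4 half-sites, all as CGTCA. The Dusp1 window, chr17:26508473-26508722 (minus strand), held 3 matches, 2 of which overlap in 1 full element. The Fos window, chr12:85473640-85473889 (plus strand), held 2 half-sites, both as TGACG. The Ddit4 window, chr10:59951771-59952020 (minus strand), held 0, as did that of Cx3cr1, chr9:120068297-120068546 (minus strand). Among the first windows of 9169 tested genes, 28.2% held at least 1 half-site, 7.5% at least 2, 0.382% at least 4, and 2.92% the full element. None of these 5 windows held an exact match to the CArG box, the serum response factor motif (CC, 6 bases of A or T, GG), which 1.09% of tested genes' windows did. Inexact matches and bases further upstream than 250 were not searched, so this does not show that these genes lack the motif. A match describes the letters only and is neither a shown binding site nor a cause.

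The other members of the class varied. Of 18 immediate early genes tested of 19 listed, 4 passed, all higher, 9 had an unadjusted p under 0.05, all higher, and 16 had a log2 fold change above 0. Their median was 0.31, against 0.00 for all genes tested. Btg2, an antiproliferative gene, was at 0.81 (adjusted p = 0.535) and Egr2, a zinc-finger factor, at 1.13 (adjusted p = 0.559), neither past the test. Egr4 was at 0.55 and 6 of 7 knockout libraries lay above the highest control (26.8 to 44.8 against 23.2 to 32.0 CPM, adjusted p = 0.535). Nr4a2 and Egr3 were at 0.33 and 0.35 (adjusted p = 0.623 and 0.652). Egr1, another gene driven by neuronal activity, was at 0.17 (359 to 563 against 307 to 545 CPM, 95% interval −0.09 to 0.42, adjusted p = 0.784). Jun, the partner of Fos in AP-1, was at −0.10 (95% interval −0.38 to 0.17). The intervals of Egr1 and Jun lie below the estimate of Fos, but the difference between genes was not tested.

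Neuronal transcripts gave no call beside these genes. Of 29 genes of the neuron list, 0 passed in edgeR, DESeq2 or limma voom, 5 had an unadjusted p under 0.05 (3 higher), and the median was −0.01. Syt1, a calcium sensor of synaptic vesicles, was at 0.02 (95% interval −0.13 to 0.18). Of 12 cortex and hippocampus markers, the regions where Arc is abundant, 0 passed in any of the 3 tools, 0 had an unadjusted p under 0.05, and the summed level was 588.8 to 745.8 CPM in knockout and 666.0 to 729.9 CPM in control.

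Ddit4 (ENSMUSG00000020108.5), also called REDD1, which restrains mTOR complex 1 under hypoxia, energy stress and glucocorticoids, ran from 34.6 to 50.7 CPM in knockout (median 39.5) and from 22.3 to 32.4 CPM in control (median 23.8). The groups did not overlap, with knockout higher, as in 0.0805% of all genes tested. Knockout library 1, which stood apart, was the highest. Ddit4 rose by 0.71 (SE 0.141, 95% interval 0.42 to 0.99, adjusted p = 0.026). Its mean was 47.2 ± 5.99 CPM in naive and 31.9 ± 7.05 in demyelination libraries (n = 7 each). Without knockout library 1 the log2 fold change was 0.66 and the call was lost (adjusted p = 0.0609). Over 14 fits that each left out 1 library the fold change lay between 0.66 and 0.78 and the adjusted p between 0.00944 and 0.101. The call was also lost without knockout 2 or 4 or control 1, 2, 3 or 6.

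Ddit4 and Dusp1 are both in the list of glucocorticoid-responsive genes, where they were the 2 of 12 tested genes to pass. Of the 12, 10 lay above 0 and 2 below. At an unadjusted p under 0.05, 4 were higher and 1 was lower, beside 3.64% and 3.85% of all genes tested. The list's median was 0.33, and its summed level was 1495 to 1713 CPM in knockout and 1118 to 1643 CPM in control. Of its other members, the clock gene Per1 was at 0.54 (26.6 to 37.4 against 15.0 to 30.4 CPM, adjusted p = 0.535) and the kinase gene Sgk1 at 0.31 (adjusted p = 0.716). Fkbp5 and Zbtb16, both also glucocorticoid-induced, were at −0.30 (−0.15 without knockout library 1) and −0.59, and the metallothionein gene Mt2 was at 0.03. DESeq2 also called Nfkbia, another member. Dusp1 is also among the immediate early genes, and the part of this list in their result was not tested. The list's median was 0.22 with limma voom and 0.23 without knockout library 1. Of 15 clock genes 0 passed in edgeR, DESeq2 or limma voom (1 at an unadjusted p under 0.05, Per1, median −0.05). In the integrated stress response list Ddit4 was the 1 of 19 to pass (3 at an unadjusted p under 0.05, median 0.21), and Psat1, an enzyme of serine synthesis, was at 0.46 (adjusted p = 0.287).

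Cx3cr1 (ENSMUSG00000052336.8) encodes the receptor by which microglia sense fractalkine from neurons. It ran from 10.4 to 44.3 CPM in knockout (median 26.8) and from 40.3 to 62.2 CPM in control (median 46.4). In knockout 6 of 7 libraries lay below the lowest control. Knockout library 5 overlapped with the controls, and library 3 was the lowest, and the knockout libraries varied more (SD 11.8 against 7.80 CPM in control). Cx3cr1 fell by 0.89 on the log2 scale (SE 0.184, 95% interval −1.26 to −0.52, adjusted p = 0.0365), a mean of 26.1 ± 11.8 against 48.9 ± 7.80 CPM. Naive libraries held 30.7 ± 6.19 and demyelination libraries 49.0 ± 5.28 CPM. The Cre sits at this locus in the knockout genotype and not in the control, so an effect of that allele on the transcript and an effect of the deletion cannot be told apart. The call was lost in the fit of the 14 libraries alone (adjusted p = 0.344) and in 9 of 14 fits that left out 1 library, namely knockout 2, 3, 4 or 6 or control 1, 2, 3, 5 or 6. Over these 14 fits the adjusted p lay between 0.00405 and 0.168 and the log2 fold change between −1.08 and −0.76.

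Other markers of homeostatic microglia lay on both sides of 0. Of 17 tested of 19 listed, Cx3cr1 was the 1 to pass (DESeq2 and limma voom called it alone as well). Of the 17, 8 lay above 0 and 9 below, and the median was −0.04. At an unadjusted p under 0.05, 1 was higher and 4 were lower, Cx3cr1 among them, beside 3.64% and 3.85% of all genes tested. P2ry12, a purinergic receptor found on resting microglia, ran from 7.25 to 14.9 CPM in knockout and from 13.3 to 23.1 CPM in control, with 4 knockout libraries below the lowest control. Its log2 fold change was −0.48 (SE 0.205, adjusted p = 0.623). Sall1, a transcription factor of microglial identity, was at −0.60 (SE 0.267, adjusted p = 0.635). Tmem119, a defining microglial marker, lay on the other side at 0.49 (SE 0.249, adjusted p = 0.671, and 0.24 without knockout library 7), and Fcrls was at 0.26 (adjusted p = 0.766). Csf1r, the receptor on which microglia depend for survival, was at −0.09 (50.1 to 93.6 against 63.0 to 95.3 CPM, 95% interval −0.34 to 0.17). The summed level of the list was 598.9 to 743.7 CPM in knockout and 597.5 to 709.6 CPM in control. A large part of this sum came from the list member Sparc, with means of 220 CPM in knockout and 164 in control. Its log2 fold change was 0.43 (adjusted p = 0.347), opposite to Cx3cr1, so the sum can hide falls of less abundant members.

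Genes of disease-associated microglia, the state that forms around myelin debris, also gave no call. Of 27 tested, 0 passed in edgeR or limma voom, DESeq2 called B2m, 4 had an unadjusted p under 0.05 (2 higher, 2 lower), and the median was 0.04. Lyz2, a lysozyme, was at 0.19 (49.5 to 89.7 against 42.7 to 77.6 CPM, 95% interval −0.15 to 0.53), and Trem2, the lipid receptor of this state, at 0.07 (95% interval −0.42 to 0.55). Tyrobp, its signalling partner, was at −0.04 (95% interval −0.45 to 0.36). The members with the lowest fold changes were Cybb, the catalytic subunit of the phagocyte oxidase, at −0.85 (1.997 to 4.83 against 2.70 to 6.93 CPM, adjusted p = 0.57), and Lgals3, which encodes galectin-3, at −0.68 (3.19 to 14.4 against 8.26 to 33.3 CPM, adjusted p = 0.646, and −0.39 without control library 6). Apoe, the lipid carrier, was at 0.18 (95% interval −0.04 to 0.40).

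Among 22 genes of complement, Fc receptors and lysosome 0 passed in edgeR, DESeq2 or limma voom (3 at an unadjusted p under 0.05, median 0.07). Ctss, a lysosomal protease, was at 0.04 (95% interval −0.20 to 0.28) and the lysosomal membrane gene Lamp1 at 0.24 (adjusted p = 0.577). C3, the central complement component, varied widely, from 3.14 to 47.3 CPM in knockout and from 2.23 to 16.4 CPM in control. Only 3 of 7 knockout libraries lay above the highest control, and the log2 fold change was 1.57 (SE 0.54, 95% interval 0.48 to 2.66, adjusted p = 0.535, and 0.0193 with no filter on low counts).

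Components of the TNFR1 complex were tested in 18 of 26 cases, and 0 passed in any of the 3 tools (2 at an unadjusted p under 0.05, both lower, median −0.01). These were Tab3 at −0.62 (3.61 to 10.9 against 8.001 to 15.2 CPM, adjusted p = 0.559) and Map3k7, which encodes the kinase TAK1 that TAB proteins recruit, at −0.32 (22.7 to 35.1 against 27.2 to 43.5 CPM, adjusted p = 0.646). Tab2 was at 0.08 (95% interval −0.14 to 0.31) and Cyld, a deubiquitinase that limits the signal, at −0.06 (95% interval −0.33 to 0.20). Ripk1 was at −0.37 (−0.21 without knockout library 2 or 4, −0.23 without control library 7). For Ripk1 the interval ran from −1.13 to 0.39 and for Traf2 from −0.12 to 1.27, so a 2-fold difference is not outside them. Of 6 genes tested among TNF ligands, receptors and shedding factors 0 passed in any of the 3 tools (0 at an unadjusted p under 0.05, median −0.02).

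NF-kB genes were led by the inhibitor. Nfkbia, which encodes IkB alpha, ran from 99.7 to 130 CPM in knockout (median 107) and from 62.4 to 97.3 CPM in control (median 81.1). All 7 knockout libraries lay above all 7 controls, which 0.0805% of all genes tested did in this direction. Its log2 fold change was 0.47 (SE 0.113, 95% interval 0.24 to 0.70), but it did not pass (adjusted p = 0.163, DESeq2 adjusted p = 0.0386, between 0.0386 and 0.367 over 26 alternatives). Naive libraries held 130 ± 18.5 and demyelination libraries 112 ± 17.4 CPM. Of 13 NF-kB subunits, kinases and inhibitors 0 passed in edgeR or limma voom and DESeq2 called Nfkbia (2 at an unadjusted p under 0.05, median 0.00 from −0.00462). Nfkb1, which encodes the p105 precursor of p50, was at −0.57 (5.58 to 18.1 against 8.26 to 17.2 CPM, adjusted p = 0.635), and Rela, the p65 subunit, at 0.00 (95% interval −0.36 to 0.35).

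TNF and NF-kB target genes were tested in 11 cases, and the chemokine and cytokine members such as Ccl2 (11 and 3 counts), Il1b (4 and 15), Il6 (1 and 0) and Cxcl10 (16 and 13, knockout and control) were too low to test. Of the 11, 10 lay above 0 with a median of 0.30, but 0 passed in edgeR or limma voom (2 at an unadjusted p under 0.05, both higher), and DESeq2 called Nfkbia. Ier3, an early response gene, was at 0.98 (3.90 to 12.5 against 2.58 to 5.73 CPM, SE 0.344, adjusted p = 0.535). Sod2, a mitochondrial antioxidant gene, was at 0.10 (95% interval −0.09 to 0.29) and the adhesion molecule gene Vcam1 at −0.05 (95% interval −0.42 to 0.32).

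**Figure D3:**
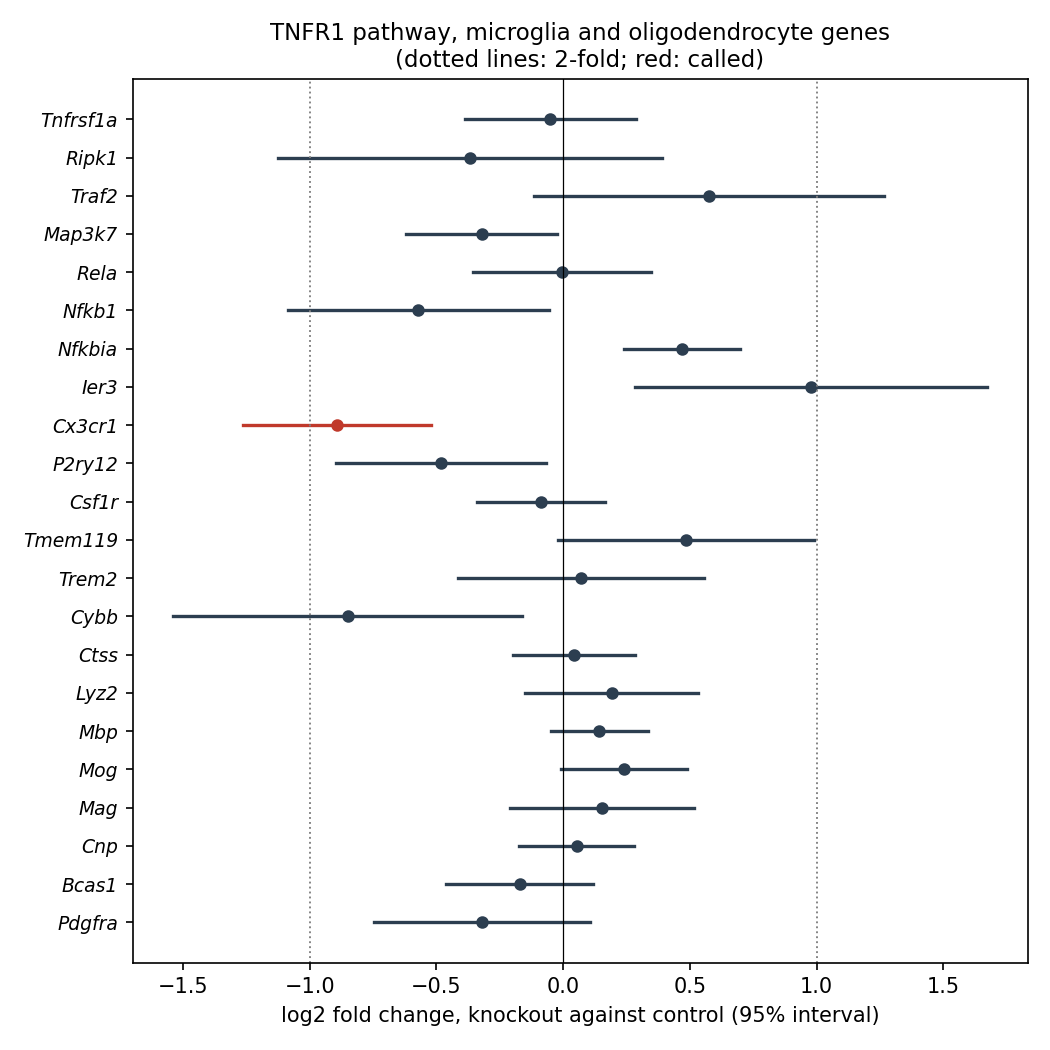
Log2 fold change (points) with its 95% interval (bars) of knockout against control for genes of the TNFR1 pathway, microglia and the oligodendrocyte lineage, n = 7 libraries each. The interval of Cx3cr1 (red, called) lies wholly below 0, but intervals that leave out 0 also occur among genes not called, such as Nfkbia. Those of the structural myelin genes lie within 2-fold of no difference (dotted lines).

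Transcripts of myelin gave no call. Of 36 myelin and mature oligodendrocyte genes 0 passed in edgeR, DESeq2 or limma voom (1 at an unadjusted p under 0.05), 28 lay above 0, and the median was 0.11. The 95% interval lay within 2-fold of no difference for 34 of them and within 1.5-fold for 26, beside 87.5% and 55.2% of all genes tested and 99.8% and 96.6% of those at 100 CPM or more. Mbp, which encodes myelin basic protein, was at 3488 ± 531 CPM in knockout and 3159 ± 336 in control (log2 fold change 0.14, 95% interval −0.05 to 0.34). Mog, a surface glycoprotein of the outer sheath, was at 0.24 (95% interval −0.01 to 0.49) and Cnp at 0.05 (−0.17 to 0.28). For Mag, an adhesion molecule that faces the axon, the libraries spread from 173 to 406 CPM in knockout and 125 to 310 in control, and the interval was wider (log2 fold change 0.15, −0.21 to 0.51). Knockout library 1 was the highest, and without it the value was −0.01. Enpp2, which encodes autotaxin and is also abundant in choroid plexus, was the member with the smallest p at 0.31 (297 to 482 against 260 to 365 CPM, adjusted p = 0.559).

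Earlier stages of the lineage gave no call either. Of 13 newly formed oligodendrocyte genes 0 passed in any of the 3 tools (0 at an unadjusted p under 0.05, median 0.05), with Bcas1, a marker of myelinating cells in formation, at −0.17 (95% interval −0.46 to 0.12, −0.31 without knockout library 1) and Tcf7l2 at 0.16 (−0.11 to 0.42). Of 17 precursor genes 0 passed (1 at an unadjusted p under 0.05, median 0.05). Pdgfra, the growth factor receptor of precursors, was at −0.32 (6.04 to 29.2 against 21.3 to 32.5 CPM, 95% interval −0.75 to 0.11), and the lowest value belonged to knockout library 1, without which the log2 fold change was −0.17. Pcdh15 was at −0.45 (adjusted p = 0.641). Among 25 trophic factors and remyelination signals 0 passed in any of the 3 tools (1 at an unadjusted p under 0.05, Igf2 at 0.38 and 0.23 without knockout library 1, median 0.00 from 0.00236), and Pdgfa, the ligand of Pdgfra, was at 0.18 (95% interval −0.04 to 0.40).

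Astrocyte genes lay mostly above 0 without passing. Of 18 homeostatic astrocyte genes 16 lay above 0, beside 50% of all genes tested, with a median of 0.105. Of the 18, 0 passed in any of the 3 tools (4 at an unadjusted p under 0.05, all higher). Glul, the glutamine synthetase of astrocytes, was at 0.26 (SE 0.0881, adjusted p = 0.535) and the glutamate transporter gene Slc1a2 at 0.01 (95% interval −0.15 to 0.17). All 18 intervals lay within 2-fold and 17 within 1.5-fold. Of 12 reactive astrocyte genes 9 lay above 0 (median 0.23, 0 passed in any of the 3 tools, 0 at an unadjusted p under 0.05). Gfap, the astrocyte filament, was at 0.26 (28.3 to 55.2 against 22.4 to 40.7 CPM, adjusted p = 0.762) and Vim at 0.21 (adjusted p = 0.672).

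Class I antigen presentation had B2m, the shared light chain, as its leading gene. It ran from 121 to 193 CPM in knockout (median 164) and from 99.6 to 142 CPM in control (median 109), and 5 of 7 knockout libraries lay above the highest control. The log2 fold change was 0.45 (SE 0.106, 95% interval 0.24 to 0.67, adjusted p = 0.13, between 0.0275 and 0.491 over 26 alternatives). It was called without knockout library 5 (0.0367) and with the share of mitochondrial counts as a term (0.0275). H2-D1, a heavy chain, was also at 0.45 (adjusted p = 0.535), and 6 of the 7 genes tested in this list lay above 0 (median 0.25). None of the 7 passed in edgeR or limma voom, DESeq2 called B2m, and 2 had an unadjusted p under 0.05. Of 12 type I interferon genes 0 passed in any of the 3 tools (2 at an unadjusted p under 0.05, median 0.08). Ifitm3 was at 0.50 (31.9 to 61.8 against 24.3 to 41.0 CPM, adjusted p = 0.535) and Lgals3bp at 0.01 (adjusted p = 0.996). Of 19 genes of other cytokine pathways 0 passed in any of the 3 tools (1 at an unadjusted p under 0.05, Jak2 at −0.46), and Cx3cl1, the fractalkine ligand of Cx3cr1, was at 0.13 (95% interval −0.13 to 0.40).

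Sterol genes gave no call. Of 25 cholesterol synthesis genes 0 passed in any of the 3 tools (2 at an unadjusted p under 0.05, median 0.01). Hmgcs1, an early enzyme of the pathway, was at −0.05 (95% interval −0.27 to 0.16). Tm7sf2, a sterol reductase, ran from 6.70 to 36.8 CPM in knockout and from 6.42 to 24.5 in control, at 1.07 (SE 0.327, adjusted p = 0.525, and 0.0274 with no filter on low counts). Of 16 efflux and storage genes 0 passed in any of the 3 tools (2 at an unadjusted p under 0.05, median 0.11), with the lipoprotein receptor Scarb1 lowest in p at −0.64 (adjusted p = 0.559).

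The remaining groups had 0 genes past the test in any of the 3 tools. Cell death and necroptosis genes (13 tested, 0 at an unadjusted p under 0.05) had a median of 0.02. Copper and iron handling genes (15 tested, 2) had a median of 0.06, synapse and axon genes (23, 1) of −0.05, oxidative phosphorylation genes (34, 3) of 0.06, and cytosolic ribosomal protein genes (28, 0) of 0.00 (0.00253). All 28 ribosomal and 33 of the 34 oxidative phosphorylation intervals lay within 1.5-fold. Cell cycle genes (12 tested, 3) had a median of 0.29, with Cdkn1c, a cyclin-dependent kinase inhibitor, at 0.63 (adjusted p = 0.549), while Mki67 (25 and 33 counts) and Top2a (28 and 32) were too low to test.

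**Figure D4:**
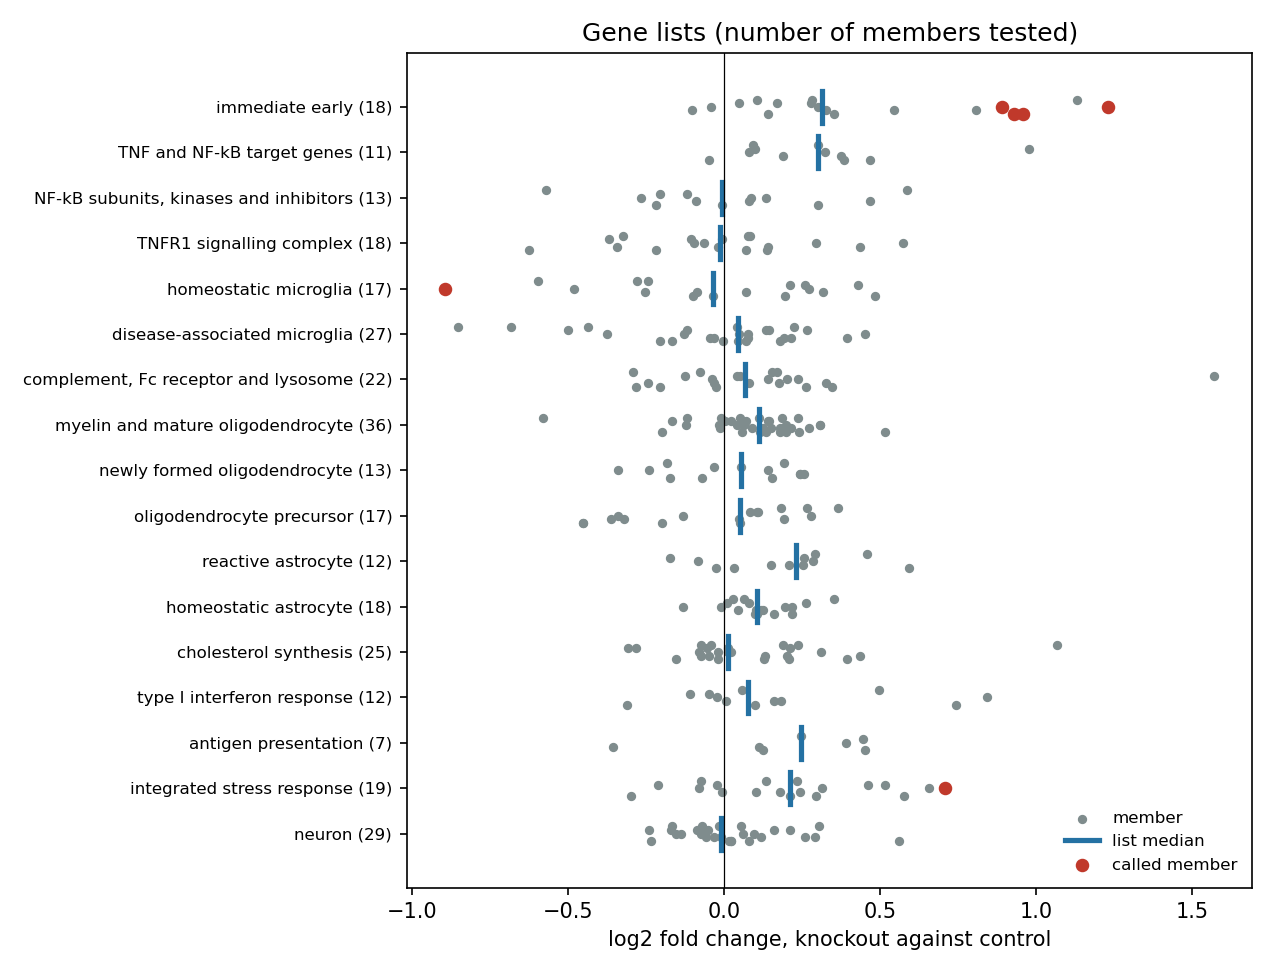
Log2 fold change of knockout against control for each tested member (grey points) of 17 gene lists, with list medians (blue bars) and called members (red). The immediate early list holds 4 red points, the homeostatic microglia list Cx3cr1 and the stress response list Ddit4, and the other medians lie between −0.01 and 0.30.

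Genes next in order of p did not pass edgeR's test over the 12423 genes, but several were called under other settings. Ttr, which encodes transthyretin and is made in the choroid plexus, ran from 726 to 1157 CPM in knockout and from 408 to 924 CPM in control, with 6 of 7 knockout libraries above the highest control. Its log2 fold change was 0.64 (SE 0.144, 95% interval 0.35 to 0.93, adjusted p = 0.114, between 0.000673 and 0.263 over 26 alternatives). Limd1, a LIM-domain adaptor, was at −0.90 (3.65 to 21.2 against 15.4 to 35.3 CPM, adjusted p = 0.119). Txnip, which binds thioredoxin and responds to glucose, was at 0.67 (31.3 to 72.5 against 23.5 to 39.8 CPM, adjusted p = 0.13) and Depp1 at 1.72 (5.15 to 21.4 against 1.11 to 6.93 CPM, adjusted p = 0.119). Further in this order were the noncoding Mirg at −0.67, A530083M17Rik at −1.27, Creb3l1 at 1.19, Hcfc1r1 at 0.40, the matrix gene Sparc at 0.43, the extracellular superoxide dismutase gene Sod3 at 1.18 and Gm43316 at −0.86, with adjusted p-values from 0.181 to 0.364. Sod3 was at 0.67 without knockout library 1. DESeq2 called Ttr, Limd1, Depp1, Txnip and A530083M17Rik, and edgeR with no filter on low counts called Ttr, Limd1, Depp1, Txnip and Mirg. Ttr was also called without knockout library 3 (adjusted p = 0.0339), without control library 2 (0.0136) and with a replicate block in the 14 libraries (0.0308), and Txnip without knockout library 3 (0.0319). In Gm43316 the groups did not overlap, with knockout lower, as in 0.0483% of all genes tested.

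Limd1 lies 47 protein-coding genes from Cx3cr1 in the RefSeq gene order of GRCm38.p6. The neighbours of both modified loci were therefore counted. Up to 100 genes on either side of Cx3cr1 were taken, and on 1 side the order ended after 67. Of these, 0 of 86 tested passed in edgeR or limma voom and DESeq2 called Limd1 (adjusted p = 0.018). At an unadjusted p under 0.05, 2 of the 86 were higher and 9 lower, beside 3.64% and 3.85% of all genes tested. Their median was −0.01, and the larger count of lower genes was not tested. Limd1 also passed in edgeR with a replicate block in 28 libraries (adjusted p = 0.0291), without control library 3 (0.0357) and with no filter on low counts (0.0125). Of these 86, the 60 within 50 genes had 2 higher and 4 lower at that level. Around Tnfrsf1a, whose floxed allele both genotypes carry, 0 of 70 genes within 100 on either side passed in any of the 3 tools (4 at an unadjusted p under 0.05, all higher, median 0.11).

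Genes that responded to cuprizone were then followed in the knockout comparison, which shares no library with the comparison of demyelination and naive brain. That comparison called 162 genes higher (1.3%) and 87 lower (0.7%). Of the 162, Cx3cr1 was the 1 gene called in knockout, lower (DESeq2 added B2m), and 93 lay above 0 with a median of 0.04. Of the 87, Ddit4 was the 1 gene called, higher, and 48 lay below 0 with a median of −0.04. Their median change in demyelination was 1.01 and −0.72, and 143 and 80 of them had an interval within 2-fold in the knockout comparison. Of the 87, the 28 lower by more than 2-fold in demyelination had a median of 0.03 in knockout, with 15 above 0. With the share of mitochondrial counts as a term, the medians of the 162 and the 87 were −0.00268 and −0.00547. These medians therefore have no firm direction. Among the genes with the smallest p in demyelination, Ctsd, a lysosomal protease, was at 0.08 in knockout (95% interval −0.17 to 0.32), Cst7 at −0.17 (−0.88 to 0.55), Mal, a proteolipid of compact myelin, at 0.04 (−0.17 to 0.26), Mobp at −0.01 (−0.22 to 0.20), Cldn11, the tight junction protein of myelin, at 0.02 (−0.22 to 0.26) and Prr18 at 0.11 (−0.09 to 0.32).

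**Figure D5:**
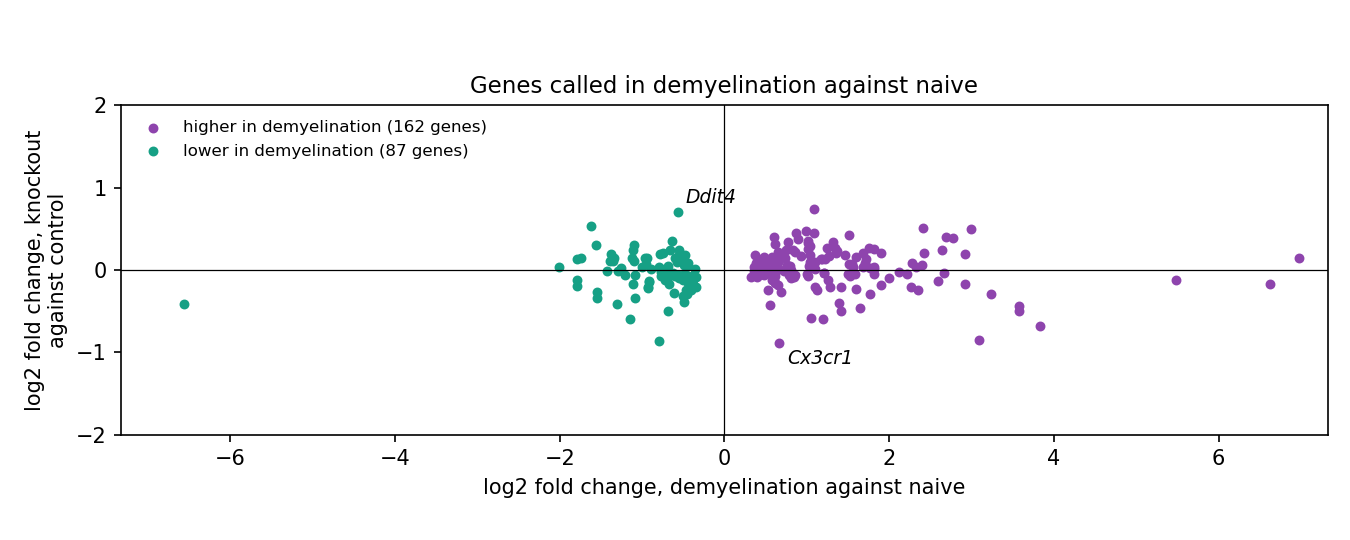
For the 249 genes called in demyelination against naive, their log2 fold change there (x axis) and in knockout against control in remyelination (y axis, same scale), one point per gene. Purple genes were higher and green genes lower in demyelination, and apart from Ddit4 and Cx3cr1, which are named, none was called on the y axis.

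Markers of other cells and of dissection were counted beside these results, and their part in them was not tested. Choroid plexus genes lay above 0 in 7 of 7 tested of 14 listed (4 at an unadjusted p under 0.05, median 0.31, DESeq2 called Ttr), with a summed level of 1075 to 1612 CPM in knockout and 714.0 to 1337 CPM in control, and Folr1 and Kcne2, defining genes, had 54 and 28 counts against 48 and 24. Red blood cell genes lay above 0 in 4 of 5 (median 0.485, 561 to 1195 against 432 to 772 CPM, 3 at an unadjusted p under 0.05, all higher), with Hba-a2 at 0.57 (adjusted p = 0.525, and 0.029 with no filter on low counts) and its near-identical copy Hba-a1 at 0.55, between which reads may be divided. Meningeal genes (11 tested, 3 at an unadjusted p under 0.05, all higher, median 0.24) and cerebellar genes (12, 3, all higher, median 0.145) also lay mostly above 0, the latter led by Cbln3 at 0.42 (adjusted p = 0.512). Over the 12423 genes, edgeR, DESeq2 and limma voom called 0 members of the red blood cell, meningeal and cerebellar lists. Mitochondrial transcripts lay below 0 in 12 of 13 (0 called in any of the 3 tools, 0 at an unadjusted p under 0.05, median −0.11). Lymphocyte markers were near absent, with Cd3d and Ms4a1 at 0 counts in all 14 libraries, and of 15 monocyte, neutrophil and border macrophage genes only Mrc1 was tested, at 0.46 (adjusted p = 0.809).

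No member was called by edgeR, DESeq2 or limma voom among endothelial and mural (16 tested, 0 at an unadjusted p under 0.05, median 0.05), ependymal (2, 0, 0.06), striatal (8, 0, 0.09), hypothalamic (6, 1, −0.335), olfactory bulb (7, 0, 0.01) and spinal cord and hindbrain genes (2, 0, 0.675). The 2 lymphocyte genes tested had a median of 0.01, and of 8 pituitary genes 0 were tested.

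The size of difference that these libraries leave was counted for all genes. For 10874 genes (87.5%) the 95% interval of the log2 fold change lay within 2-fold of no difference, and for 6854 (55.2%) within 1.5-fold. This share depends on level. It was 55.7% within 2-fold for the 3027 genes under 10 CPM, 95.5% from 10 to 30 CPM, 99.4% from 30 to 100 CPM and 99.8% for the 1781 genes at 100 CPM or more. The quartiles of all log2 fold changes were −0.15 and 0.14, and 61 genes had an estimate past 2-fold, 51 of them under 10 CPM. Of the 6 called genes, Fos was the 1 with an estimate past 2-fold. In 16 genes (0.129%) the libraries of the groups did not overlap, 10 with knockout higher and 6 with knockout lower.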

How the data were processed

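Whole-brain total RNA was isolated with TRIzol and made into QuantSeq 3′ FWD libraries, per the labels' protocols. The authors deposited, for each of 28 libraries, expected counts per gene. FastQC, cutadapt, STAR, RSEM and edgeR and the build GRCm39 are named in the submitters' processing notes. Neither header nor label states their roles, versions, the annotation or the handling of strand, so reads of overlapping and antisense genes cannot be told apart. Between 96.59 and 97.69% of the deposited expected counts were integers to a tolerance of 0.005, and the rest were rounded to whole numbers. TPM and FPKM columns were not used. Symbols came from a GENCODE table on GRCm38, which matched 52081 of 55414 gene IDs, and unmatched IDs took 10.76% of counts. No 2 libraries within knockout or within control in remyelination agreed within sampling noise (lowest chi-square per degree of freedom 2.53). Other pairs of libraries were not compared in this way.

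Genes were filtered with filterByExpr, scaled by TMM and tested with edgeR 4.0.16 (quasi-likelihood F-test, R 4.3.3) in one fit of 28 libraries with 4 group means, with Benjamini-Hochberg adjustment over 12423 genes and a threshold of 0.05. Standard errors are Wald errors at the quasi-likelihood dispersion, and 95% intervals use the fit's degrees of freedom. The common biological coefficient of variation was 19.47%. DESeq2 1.42.0, limma 3.58.1 (voom) and further alternatives are described in the closing part. Simulated counts with known changes were used to check the scripts. Libraries of knockout and control with the same replicate number were weakly correlated at most (7 correlations of deviations from −0.0507 to 0.149, 1 of them over 0.1). The share of the most abundant gene was lowest in replicate 1 of knockout, control and demyelination (1.33, 5.84 and 5.68%). It was highest in their replicate 6 (17.1, 14.9 and 15.4%). Naive libraries went the other way (25.5% in replicate 1, 10.2% in replicate 6). What replicate numbers share was not tested.

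The members and gene lists were chosen with earlier results of these data known. Genes named were the target and the Cre locus, all called genes, the next by p up to 20, and, per list, the 3 with the highest mean CPM or the smallest p, low genes whose absence bears on the pathway, and the leading genes of demyelination. Other genes, such as P2ry12, Cybb, Egr4, Ier3 and Mag, were named after their values were seen. Some genes that this rule names are not reported here.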

Additional observations from a re-analysis of the deposited data

Results flagged for a closer look

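In 186 groups of 7 values (93 named genes, 2 genotypes), 17 had a highest or lowest library whose gap to its neighbour exceeded Dixon's 95% critical share of the range. Chance flags about 1 in 20 groups of independent, normally distributed values. Some of these genes were named after their values were seen, and all share the same 14 libraries. The 17 therefore cannot be set against that rate. Knockout library 1 accounted for 9 of the 17 values. It was highest for Sod3 (43.5 CPM, next 15.9), Bcas1 (156, next 95.02), Cyld (135, next 82.5), Igf2 (59.2, next 40.2), Cybb (4.83, next 3.14), Nfkb1 (18.1, next 10.4) and Mag (406, next 271). For Csf1r (50.1 CPM, next 78.1) and Pdgfra (6.04, next 19.5) the same library was lowest. In the other knockout libraries, Ttr was lowest in library 3 (726 CPM, next 1000), Gm43316 was lowest in library 6 (4.46, next 10.9) and Tmem119 was highest in library 7 (25.2, next 14.4).

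Among controls, library 1 was highest for Mirg (70.5 CPM, next 50.6) and C3 (16.4, next 7.10) and lowest for Ifitm3 (24.3, next 34.1). Library 5 was highest for Ddit4 (32.4 CPM, next 26.3), and library 6 for Fcrls (21.1, next 17.1). Of the 6 called genes, Ddit4 was the 1 with such a value, and the control in question still lay below the lowest knockout library.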

How the results depend on the processing

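Under 26 alternatives (12 settings and 14 fits that each left out 1 library) none of the 6 called genes changed direction. Nr4a1, Arc, Dusp1 and Fos were called in all 26, with adjusted p-values up to 0.0149, 0.0246, 0.0442 and 0.0412. The count of 6 called genes became 13 with DESeq2 (10 higher, 3 lower) and 28 with no filter on low counts (17 higher, 11 lower), and ranged from 4 to 8 when 1 library was left out. Cx3cr1 lost its call with the 14 remyelination libraries alone (−0.89, adjusted p = 0.344), with library totals in place of TMM (−0.89, 0.084) and with the share of mitochondrial counts as a term (−0.84, 0.0721). With a replicate block, a term for the shared replicate number, it was at −0.91 in 28 libraries (0.0569) and −0.95 in 14 (0.199). Leaving out 1 library gave −1.08 to −0.76. By correlation the numbers paired the libraries weakly at most (3 of 7 correlated best with their own number). The blocked fits called 6 and 5 genes, with Limd1 in place of Cx3cr1 in 28 libraries, and without Cx3cr1 and Ddit4 but with Ttr in 14. Ddit4 stayed between 0.66 and 0.78 and lost its call with the 14 libraries alone (0.0743), the block in 14 (0.14), limma voom (0.0501), library totals (0.084) and without knockout and naive libraries 1 (0.0677). For Tnfrsf1a the value ran from −0.15 to 0.01. The genes within 2-fold numbered 10556 to 10942. Of 1014 list medians over 39 lists, 3 moved by at least the SD of the list's mean log2 CPM over the 7 knockout libraries. That SD is a spread of levels and not of fold changes, so a smaller move does not show a stable median. All 3 were for the glucocorticoid list, from 0.33 to 0.22 (limma voom) and 0.23 (without knockout library 1). Of the 1014, 85 differed in sign from the main value, so medians near 0 have no firm direction. The cause of these changes was not tested. Depth limits genes under 10 CPM, where 1.42% of intervals lay within 1.5-fold.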
